A study of Rattus norvegicus with 16 samples.

Results

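The tumor necrosis factor (TNF) superfamily was followed in rat dorsal root ganglia (DRGs) through 40 of the 21021 genes listed for each sample, 17 encoding ligands and 23 encoding receptors. They were taken by gene symbol, as every Tnfsf and Tnfrsf gene together with Tnf, Lta, Ltb, Ltbr, Cd40, Cd40lg, Cd27, Cd70, Fas and Faslg, a rule on names alone, although the set was picked with earlier results of these data known. Sequencing covered DRGs taken 1, 7 or 14 days after tumor cell implantation (TCI) into the left tibia, and DRGs of sham rats taken on day 14, with 4 samples in each of the 4 groups. By the methods of the study the animals were adult female Sprague-Dawley rats, the implanted cells came from a rat mammary carcinoma, and the lumbar L3 to L5 ganglia of the implanted side of an animal made up 1 sample. The labels give the sham injection as PBS, whereas the methods give boiled tumor cells. Since sham ganglia were taken on day 14 only, TCI on days 1 and 7 also differed from sham in the time since surgery, and both differences cannot be told apart. Day 1 sample 2 and day 7 sample 3 were left out by the study for low correlation with the rest, and the comparisons below use the other 14 samples.

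Ligands of this superfamily are mostly trimers that sit on the cell surface or are cut from it, and each binds receptors with cysteine-rich repeats. Receptors with a death domain, such as the TNF receptor TNFR1 and those for FAS ligand and TRAIL, can recruit TRADD or FADD and lead to caspase activation. The others bind TRAF adaptors and activate NF-kB, survival and costimulation. Many of the genes are chiefly known from lymphocytes, macrophages and dendritic cells. In sensory ganglia TNF is known to sensitize nociceptors, and death domain receptors such as DR6 are studied in axon degeneration.

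The values are FPKM, fragments scaled for transcript length and for the number of mapped fragments, so that levels can be compared between genes. The deposited tables hold no read totals. From the smallest values of 87 low genes, the depth of the samples was estimated to lie between 0.902 and 1.16 times the median sample. Summed markers of sensory neurons, Schwann cells and satellite glia were high in every sample. Single markers were not all high, as in satellite glia Slc1a3 reached at most 5.63 FPKM and Apoe at least 2370 FPKM. The 9 sensory neuron markers summed to between 16854 and 17791 FPKM in sham and 14326 and 15025 FPKM on day 7. On day 14 they summed to between 13920.5 and 16670.0 FPKM. Of the 9, 3 were called lower on each late day, beside 3.45% of all tested genes on day 7 and 3.21% on day 14. The left-out sample 3 of day 7 stood apart by its skeletal muscle markers, which summed to 20722 FPKM against at most 765 FPKM in sham. That 765 FPKM was the sum of sham sample 4, which also carried muscle genes and stayed in the comparisons. Its Acta1 was at 177 FPKM against at most 5.72 in the other sham samples, and its Ckm at 76.5 against at most 1.5. Of the 4 sham samples it was the highest in 12 of the 20 TNF superfamily genes described by name below. Whole ganglia are mixtures, and in them fewer cells of a type and less RNA per cell cannot be told apart.

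In the sham ganglia 3 receptors and 1 ligand stood above the other genes. The highest was Tnfrsf21, which encodes the death domain receptor DR6, at 79.9 ± 3.88 FPKM (SD, n = 4). It was followed by Tnfrsf1a, the main receptor for soluble TNF, at 22.9 ± 0.449 FPKM, by the ligand Tnfsf12 (TWEAK) at 18.5 ± 1.02 FPKM and by the lymphotoxin beta receptor Ltbr at 16.9 ± 3.40 FPKM. The sham samples of Tnfsf12 and Ltbr overlapped, and those of the first 2 genes did not overlap with each other or with these. All other genes had sham means of at most 5.39 FPKM (Tnfrsf12a). In all, 20 genes reached a group mean of 1 FPKM in at least 1 group (8 ligands and 12 receptors) and are described by name, and the other 20 stayed below it in all groups. Just inside this limit were Tnf with 1.01 FPKM on day 14 and Faslg with 1.10 FPKM on day 7, and just outside it were Tnfrsf26 with 0.990 FPKM on day 7 and Tnfrsf4 with 0.790 FPKM on day 14.

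On days 7 and 14 after TCI most of the tested TNF superfamily genes were called higher than in sham and none lower. The comparison was made with limma on log2(FPKM + 1), and a gene was called at a Benjamini-Hochberg adjusted p of at most 0.05 over the 14023 genes that had at least 1 FPKM in at least 3 samples. Of the 40 genes, 19 were tested. On day 7, 12 of the 19 were called higher and 0 lower, beside 14.5% of all tested genes called higher and 3.45% lower. On day 14, 10 of the 19 were called higher and 0 lower, beside 11.9% and 3.21% of all tested genes. The median log2 fold change of the 19 was 0.54 on day 7 and 0.51 on day 14, where all tested genes had medians of 0.04 and 0.03. All 10 genes called on day 14 were also called on day 7, and Tnfsf12 and Tnfsf13 were called on day 7 but not on day 14. When only sham and day 14 entered the fit, 6 of 17 tested genes were called higher on day 14. The share of all genes called in that fit was not counted, so the lower count cannot be read as particular to these genes. The stricter cut-offs of the study were an adjusted p up to 0.001 together with a log2 fold change beyond 1 in either direction. With them 3 genes passed on day 7 (Tnfrsf14, Tnfrsf1b and Tnfsf10, beside 1.83% of all tested genes) and 1 on day 14 (Tnfrsf14, beside 0.642%). The study applied them with another test and reported more genes, so these counts are not those of the study.

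The limit of 1 FPKM bears on these counts, because 7 of the 19 genes passed it only with the help of other groups than sham. Among all tested genes of that kind 43.6% were called higher on day 7 and 35.5% on day 14. Of the 12 genes that passed the limit in sham alone, 6 were called higher on day 7, beside 12.3% of all such genes, and 4 on day 14, beside 10.2%. With no limit on the level and all 40 genes in the fit, 16 were called higher on day 7 (beside 10.4% of all genes) and 11 on day 14 (beside 7.92%). The count of genes with every TCI sample above every sham sample was 20 of 40 on day 7 and 16 of 40 on day 14, where 19.1% and 11.0% of all genes above 0 showed this. When all 16 samples entered the fit, 13 of 20 tested genes were called higher on day 7 (beside 14.5%) and 10 of 20 on day 14 (beside 8.86%).

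On day 1 none of the 19 genes passed the test in limma, as was the case for all 14023 genes. The study itself, with another test, reported genes higher and lower on day 1. At an unadjusted p under 0.05 there were 2 of the 19, both with a positive fold change, and 734 of all tested genes. They were Tnfsf12, at 18.5 ± 1.02 FPKM in sham and 20.6 ± 0.817 on day 1 (log2 fold change 0.15, adjusted p = 0.939), and Fas, at 1.19 ± 0.086 and 1.57 ± 0.301 (log2 fold change 0.23, adjusted p = 0.939). Of the 40 genes, 2 had every day 1 sample above every sham sample (Tnfrsf1a and Tnfsf12), beside 4.90% of all genes. Between day 14 and day 7 none of the 19 was called either, with 0.00713% of all tested genes called higher and 0.0927% lower. Tnfsf13 and Tnfsf12 had the smallest p in that comparison, with log2 fold changes of -0.42 (adjusted p = 0.385) and -0.15 (adjusted p = 0.456) from day 7 to day 14. The comparisons of days 1, 7 and 14 with sham share the 4 sham samples.

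**Figure D1:**
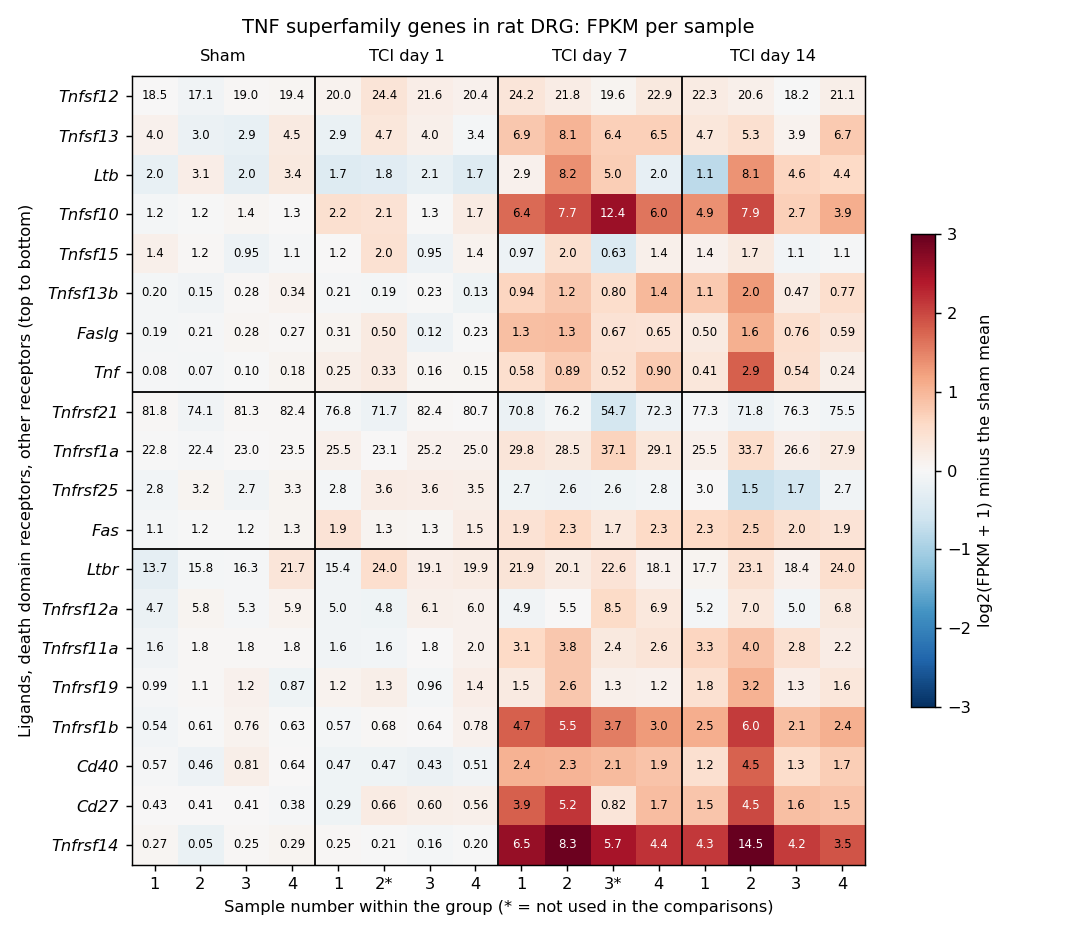
FPKM of the 20 named genes (rows, in the order ligands, death domain receptors, other receptors) in the 16 samples (columns, * for the 2 samples not used in the comparisons), with colors giving log2(FPKM + 1) minus the sham mean. The deepest red cells lie on days 7 and 14, above all for Tnfrsf14, which reached 14.5 FPKM in sample 2 of day 14.

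**Figure D2:**
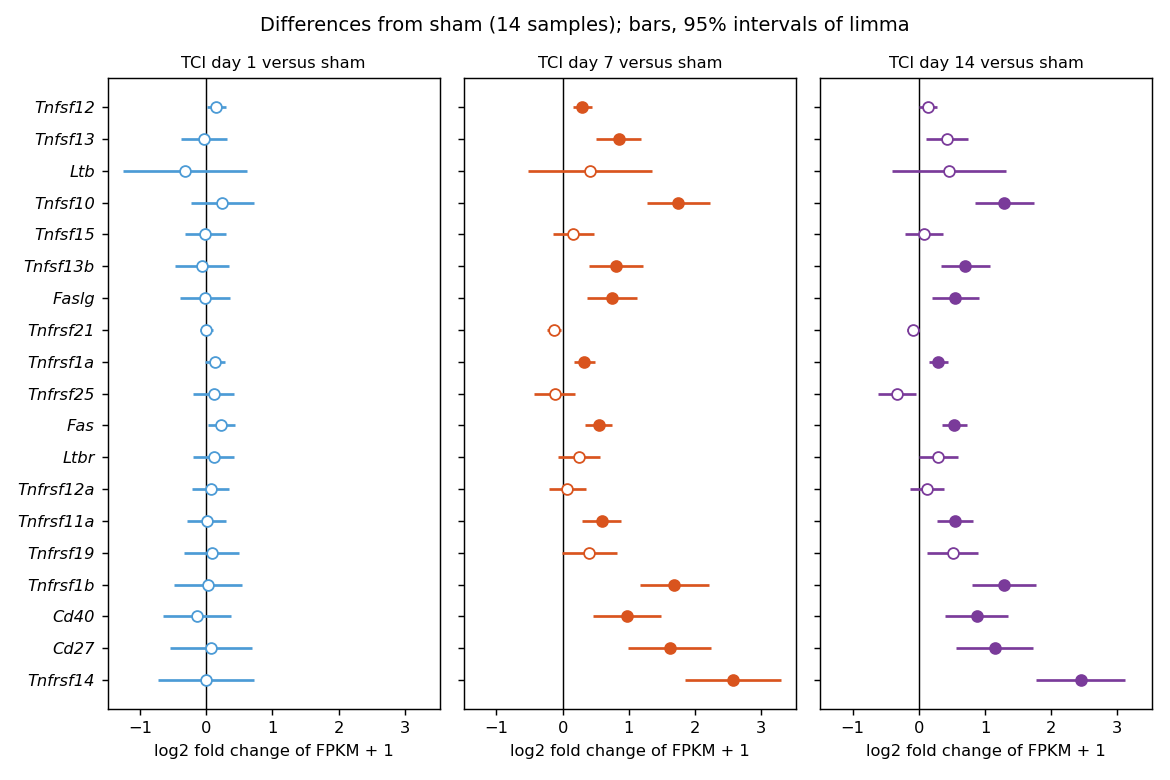
Log2 fold change of FPKM + 1 versus sham for the 19 tested genes on days 1, 7 and 14 (points) with the 95% interval of limma (bars), and filled points for an adjusted p of at most 0.05. No point is filled on day 1, 12 are on day 7 and 10 on day 14, all to the right of 0.

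The widest difference was that of Tnfrsf14, which encodes HVEM, a receptor of lymphocytes and myeloid cells for LIGHT and BTLA. Its values in sham samples 1 to 4 were 0.27, 0.05, 0.25 and 0.29 FPKM, in the 3 day 1 samples 0.25, 0.16 and 0.20, in the 3 day 7 samples 6.47, 8.30 and 4.44, and in day 14 samples 1 to 4 4.28, 14.5, 4.17 and 3.49. The 7 late samples were all above the 7 sham and day 1 samples, and sample 2 of day 14 was the highest by far. The log2 fold change was 2.58 ± 0.33 (SE, adjusted p = 0.000291) on day 7 and 2.45 ± 0.31 (adjusted p = 0.000602) on day 14. The means of 6.40 FPKM on day 7 and 6.61 FPKM on day 14 were 29.8 and 30.7 times the sham mean of 0.215 FPKM, a ratio that rests on sham values near 0. Without sample 2 the day 14 mean was 3.98 FPKM, 18.5 times that of sham. In the order of levels the gene went from place 25 of 40 in sham to place 7 on day 7 and place 5 on day 14. The left-out samples lay with their groups, at 0.21 FPKM on day 1 and 5.68 FPKM on day 7.

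Tnfrsf1b encodes TNFR2, the TNF receptor without a death domain. Sham samples 1 to 4 had 0.54, 0.61, 0.76 and 0.63 FPKM, the day 1 samples 0.57, 0.64 and 0.78, the day 7 samples 4.66, 5.55 and 2.95, and the day 14 samples 2.47, 5.95, 2.06 and 2.42. Every late sample exceeded every sham and day 1 sample. On day 7 the log2 fold change was 1.69 ± 0.24 (adjusted p = 0.000478), and on day 14 1.29 ± 0.22 (adjusted p = 0.00268). Its partner Tnfrsf1a (TNFR1), which has a death domain, differed far less in relative terms from a much higher level. It was at 22.8, 22.4, 23.0 and 23.5 FPKM in sham, 25.5, 25.2 and 25.0 on day 1, 29.8, 28.5 and 29.1 on day 7, and 25.5, 33.7, 26.6 and 27.9 on day 14. All TCI samples used were above the sham samples, while the left-out day 1 sample, at 23.1 FPKM, lay among them. The log2 fold change was 0.33 ± 0.072 on day 7 (adjusted p = 0.00654) and 0.29 ± 0.066 on day 14 (adjusted p = 0.0113). The day 14 call of Tnfrsf1a was lost when only these 2 groups entered the fit (adjusted p = 0.0576) and with all 16 samples and no limit on the level (adjusted p = 0.0608). On the FPKM scale Tnfrsf1a remained the higher of both receptors in every sample.

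Tnf itself, the ligand of both receptors, had the lowest sham mean of the named genes. Its sham values were 0.08, 0.07, 0.10 and 0.18 FPKM, its day 1 values 0.25, 0.16 and 0.15, its day 7 values 0.58, 0.89 and 0.90, and its day 14 values 0.41, 2.86, 0.54 and 0.24. The late samples were all above sham, but the day 14 mean of 1.01 ± 1.24 FPKM was carried by sample 2, without which it was 0.397 FPKM. The gene did not reach 1 FPKM in enough samples to be tested, and in the fit without that limit it was not called (log2 fold change 0.69, adjusted p = 0.157 on day 7, and 0.70, adjusted p = 0.128 on day 14). In the RefSeq order of genes (assembly GRCr8) Tnf lies between Lta and Ltb. Lta stayed below 1 FPKM, and Ltb ranged from 1.96 to 3.38 FPKM in sham, from 2.0 to 8.25 on day 7 and from 1.08 to 8.10 on day 14, with overlapping groups and no call (adjusted p = 0.560 on day 7 and 0.483 on day 14).

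**Figure D3:**
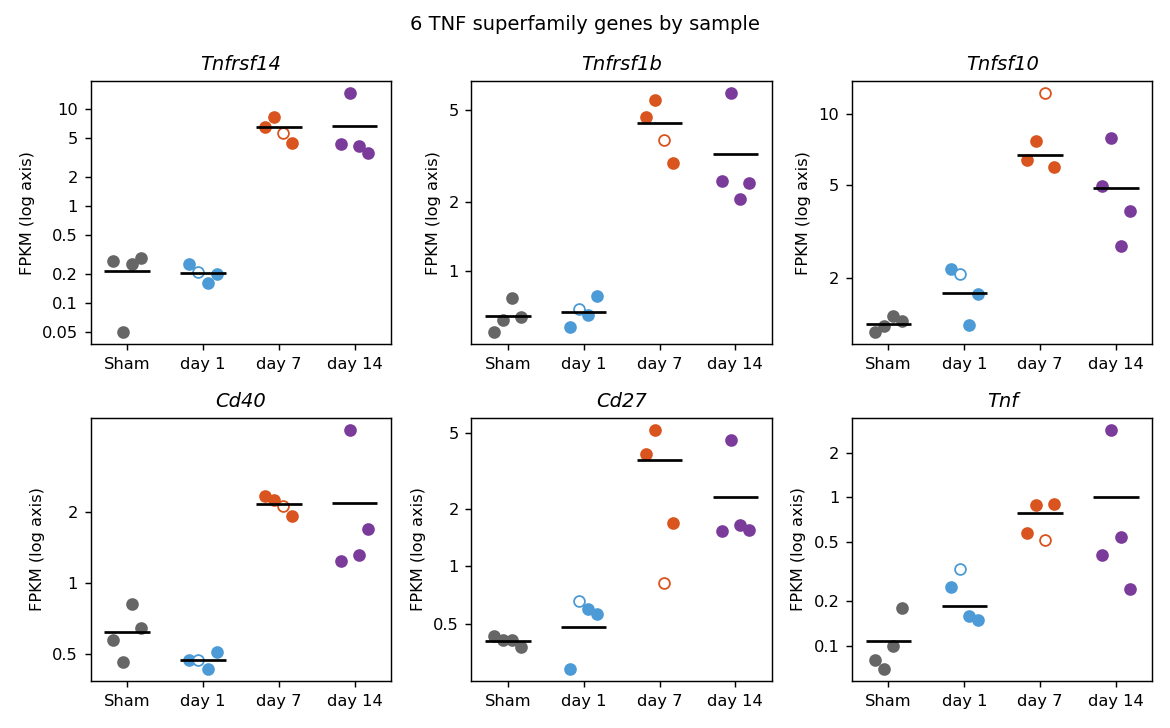
FPKM on a log axis of Tnfrsf14, Tnfrsf1b, Tnfsf10, Cd40, Cd27 and Tnf in each sample of the 4 groups (points, open for the 2 samples not used in the comparisons), with bars at the means of the samples used. In all 6 panels the filled points of days 7 and 14 lie above every sham point, and sample 2 is the highest of day 14.

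Among the other ligands, Tnfsf10, which encodes the death ligand TRAIL, had the lowest adjusted p of the 19 genes on day 7. It was at 1.17, 1.25, 1.37 and 1.31 FPKM in sham, 2.19, 1.26 and 1.70 on day 1, 6.39, 7.71 and 5.97 on day 7, and 4.92, 7.91, 2.74 and 3.87 on day 14. The day 1 samples overlapped with sham and the late samples did not. In the test its log2 fold change was 1.75 ± 0.22 on day 7 (adjusted p = 0.000235) and 1.29 ± 0.20 on day 14 (adjusted p = 0.00171). Tnfrsf10b, the only TRAIL death receptor in the set, stayed below 1 FPKM in all groups.

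Tnfsf13 and Tnfsf13b encode APRIL and BAFF, factors for B cell and plasma cell survival. Tnfsf13 had 3.96, 2.97, 2.87 and 4.47 FPKM in sham, 6.94, 8.09 and 6.47 on day 7, and 4.72, 5.29, 3.87 and 6.73 on day 14. Its day 7 samples were above all sham samples and its day 14 samples overlapped with them. The log2 fold change was 0.85 ± 0.16 on day 7 (adjusted p = 0.00278), and on day 14 it was 0.43 ± 0.15, which did not pass (adjusted p = 0.0694). Without sample 3 of day 14 it was called on that day (0.53, adjusted p = 0.0236), and likewise without sham sample 4 (0.52, adjusted p = 0.0444). Tnfsf13b had 0.20, 0.15, 0.28 and 0.34 FPKM in sham, 0.94, 1.18 and 1.42 on day 7, and 1.13, 2.01, 0.47 and 0.77 on day 14, with no late sample as low as sham. It rose on day 7 (log2 fold change 0.81 ± 0.19, adjusted p = 0.00949) and on day 14 (0.70 ± 0.17, adjusted p = 0.0166), where the call was lost without sham sample 2 (0.67, adjusted p = 0.0501). The receptors for both factors, Tnfrsf13b, Tnfrsf13c and Tnfrsf17, were below 1 FPKM in all groups. B cell and plasma cell markers were low as well, since none of the 8 marker genes could be tested, Ms4a1 (CD20) was at 0 in all sham samples, and their summed level reached 1.55 FPKM at most in sham, 1.54 on day 7 and 2.84 on day 14.

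Tnfsf12 (TWEAK), the ligand at the highest level, lies next to Tnfsf13 in the RefSeq gene order, and the counting could have split reads between the 2 genes, so that both values are uncertain in that respect. It was at 18.5, 17.1, 19.0 and 19.4 FPKM in sham, 24.2, 21.8 and 22.9 on day 7, and 22.3, 20.6, 18.2 and 21.1 on day 14. All day 7 samples were above sham, with a log2 fold change of 0.30 ± 0.066 (adjusted p = 0.00772), whereas day 14 overlapped with sham (0.14 ± 0.061, adjusted p = 0.138). The call of day 7 was lost with all 16 samples and no limit on the level (adjusted p = 0.0529), and without sample 3 of day 14 the gene was also called on day 14 (0.20, adjusted p = 0.0242). Its receptor Tnfrsf12a (Fn14) was at 5.39 ± 0.562 FPKM in sham, 5.75 ± 1.03 on day 7 and 5.98 ± 1.04 on day 14. The 95% interval of its log2 fold change reached from -0.20 to 0.35 on day 7 and from -0.14 to 0.37 on day 14.

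Faslg and Fas form the FAS death pathway, in which the ligand is carried by activated T cells and NK cells. Faslg had 0.19, 0.21, 0.28 and 0.27 FPKM in sham, 1.30, 1.34 and 0.65 on day 7, and 0.50, 1.58, 0.76 and 0.59 on day 14. The late samples were all above sham (log2 fold change 0.74 ± 0.18, adjusted p = 0.0102 on day 7, and 0.55 ± 0.16, adjusted p = 0.0365 on day 14). The call of day 14 was lost when any 1 of the 4 sham samples was left out (adjusted p from 0.0663 to 0.0878), when sample 4 of day 1 was (adjusted p = 0.0508), and with all 16 samples and no limit on the level (adjusted p = 0.0571). The receptor Fas had 1.11, 1.17, 1.16 and 1.31 FPKM in sham, 1.95, 2.31 and 2.31 on day 7, and 2.31, 2.46, 2.03 and 1.91 on day 14. No late sample of Fas overlapped with sham, and the log2 fold change was 0.54 ± 0.094 on day 7 (adjusted p = 0.00168) and 0.54 ± 0.087 on day 14 (adjusted p = 0.00200).

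The 2 remaining death domain receptors among the tested genes did not pass the test on any day. Tnfrsf21 (DR6) remained the highest gene of the set in every group, with 79.9 ± 3.88 FPKM in sham, 73.1 ± 2.79 on day 7 and 75.2 ± 2.39 on day 14. Its log2 fold change was -0.13 ± 0.047 on day 7 (adjusted p = 0.0860) and -0.09 ± 0.044 on day 14 (adjusted p = 0.214), and the day 7 samples overlapped with sham through sham sample 2. Without that sample it was called lower on day 7 (log2 fold change -0.16, adjusted p = 0.0325). Tnfrsf25 (DR3), a receptor of T cells for TL1A, was at 3.0 ± 0.287 FPKM in sham, 2.67 ± 0.0802 on day 7 and 2.24 ± 0.726 on day 14 (log2 fold change -0.33, adjusted p = 0.111 on day 14). After quantile normalization it was called lower on day 14 (-0.47, adjusted p = 0.0235), and likewise without sample 1 of that day (-0.44, adjusted p = 0.0298). Its ligand Tnfsf15 (TL1A) was at 1.19 ± 0.196, 1.48 ± 0.532 and 1.31 ± 0.279 FPKM (adjusted p = 0.484 on day 7 and 0.734 on day 14).

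Of the receptors without a death domain, 5 of 8 tested were called higher on each late day. Of the 8, 5 passed the limit of 1 FPKM only with the help of other groups than sham, and 4 of these 5 were called on each late day, beside 43.6% of all tested genes of that kind on day 7 and 35.5% on day 14. Of the 3 that passed it in sham alone, 1 was called on each day. Besides Tnfrsf14 and Tnfrsf1b these were Cd27, Cd40 and Tnfrsf11a. Cd27, a costimulatory receptor of T cells, had 0.43, 0.41, 0.41 and 0.38 FPKM in sham, 3.88, 5.18 and 1.68 on day 7, and 1.52, 4.55, 1.65 and 1.54 on day 14. All late samples used were above sham, sample 2 of each late day being the highest, and the left-out day 7 sample was lower than these at 0.82 FPKM. The log2 fold change was 1.62 ± 0.29 (adjusted p = 0.00206) on day 7 and 1.15 ± 0.27 (adjusted p = 0.0126) on day 14, the latter lost with all 16 samples and no limit on the level (adjusted p = 0.0532). Cd70, which encodes the CD27 ligand, stayed below 1 FPKM.

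Cd40, a receptor of macrophages, dendritic cells and B cells, had 0.57, 0.46, 0.81 and 0.64 FPKM in sham, 2.35, 2.26 and 1.92 on day 7, and 1.24, 4.50, 1.32 and 1.70 on day 14. The late samples lay above sham, closely together on day 7 and around 1 high sample on day 14. Its change on the log2 scale was 0.97 ± 0.24 on day 7 (adjusted p = 0.0127) and 0.88 ± 0.22 on day 14 (adjusted p = 0.0184), the latter lost when only sham and day 14 entered the fit (adjusted p = 0.0755) and without sham sample 2 (0.83, adjusted p = 0.0545). Its ligand Cd40lg was at 0 in all sham and day 1 samples and below 1 FPKM throughout. Tnfrsf11a encodes RANK, the receptor that drives osteoclast formation and is also found on myeloid cells. It had 1.56, 1.84, 1.80 and 1.81 FPKM in sham, 3.13, 3.78 and 2.59 on day 7, and 3.28, 4.0, 2.77 and 2.20 on day 14. No late sample overlapped with sham, and the gene was called on day 7 (log2 fold change 0.59 ± 0.14, adjusted p = 0.00932) and on day 14 (0.54 ± 0.13, adjusted p = 0.0126). Without sample 2 of day 7, the call of that day was lost (0.49, adjusted p = 0.0526). The RANK ligand Tnfsf11 and the decoy receptor Tnfrsf11b (osteoprotegerin) were below 1 FPKM.

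Ltbr, Tnfrsf12a and Tnfrsf19 were the 3 other receptors without a call. Ltbr, which binds lymphotoxin beta and LIGHT, was at 16.9 ± 3.40 FPKM in sham, 20.0 ± 1.89 on day 7 and 20.8 ± 3.20 on day 14, with overlapping groups (adjusted p = 0.265 and 0.163). Without sham sample 4 it was called on day 14 (log2 fold change 0.41, adjusted p = 0.0448). Tnfrsf19 (TROY), which is expressed in the nervous system, was at 1.05 ± 0.155, 1.76 ± 0.722 and 1.99 ± 0.830 FPKM. Its day 14 samples were all above sham but the test was not passed (log2 fold change 0.51 ± 0.18, adjusted p = 0.0709). It was passed without sample 3 of day 14 (adjusted p = 0.0352), without sample 2 of day 7 (adjusted p = 0.0475) and with a replicate block (adjusted p = 0.0302). In the RefSeq gene order Cd27, Ltbr and Tnfrsf1a follow each other with 1 other gene between neighbours, and of these Cd27 and Tnfrsf1a were called on both late days.

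Ligands and receptors were also set side by side in 14 ligand-receptor systems. Both sides had a gene at 1 FPKM or more in some group in 5 of them (TNF, LIGHT and lymphotoxin beta, FAS, TWEAK and TL1A). In the second of these the ligand side counted through Ltb, since the LIGHT gene Tnfsf14 stayed below 1 FPKM in all groups. In the first, Tnf reached 1 FPKM on day 14 only, where its mean without sample 2 was 0.397 FPKM. In 3 systems only the receptor side did (RANK, CD40 and CD27), in 2 only the ligand side (TRAIL, and APRIL with BAFF), and in 4 neither (OX40, 4-1BB, GITR and CD30). Summed over the genes, ligands came to 28.2 ± 1.97 FPKM in sham, 47.0 ± 5.14 on day 7 and 40.8 ± 8.26 on day 14. Receptors came to 137 ± 6.64, 160 ± 9.22 and 159 ± 16.4 FPKM. The lowest sum of ligands on a late day, 33.1 FPKM, was above the highest of sham, 31.0 FPKM, and for receptors the lowest late sum was 147 FPKM against at most 145 FPKM in sham.

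Sample 2 of day 14 stood above the rest of its group. It was the highest of the 4 in 15 of the 20 named genes and in 10 of the 10 genes called on that day. Without it 9 of these genes were still tested, and all 9 were called, with log2 fold changes of 2.04 for Tnfrsf14 (adjusted p = 7.14e-06), 1.02 for Tnfrsf1b (adjusted p = 0.000619), 1.07 for Tnfsf10 (adjusted p = 0.000698), 0.87 for Cd27 (adjusted p = 0.0195) and 0.58 for Cd40 (adjusted p = 0.00251). Faslg then no longer reached 1 FPKM in enough samples. The share of all genes called in the fit without sample 2 was not counted.

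Markers of immune cells, and of some other cells, moved with the same days. The 12 macrophage markers summed to between 35.4 and 63.0 FPKM in sham, 375 and 502 on day 7, and 189 and 679 on day 14, with 12 and 10 of 12 called higher. The 12 T cell markers summed to between 13.0 and 15.3 FPKM in sham, 51.8 and 113 on day 7, and 43.7 and 117 on day 14, with 10 of 11 tested called higher on each late day and Cd8b at 0 in all sham samples. For the 7 NK cell markers the sums were 0.770 to 1.45 FPKM in sham, 19.6 to 41.8 on day 7 and 8.82 to 53.3 on day 14. All 5 tested were called higher on day 7 and 4 on day 14. Ncr1, which could not be tested, did not follow the sums. It was at 0.49 to 0.74 FPKM in sham, at 0.39, 1.14 and 0.57 on day 7, and at 0.32 to 0.61 on day 14. In these 3 lists the highest sum of day 14 was that of sample 2. The 5 tested NK cell markers stayed below 1 FPKM in every sham sample. Of the tested T cell markers only Cd4 and Il7r reached 1 FPKM in sham. The others of both lists passed the limit only with the help of other groups than sham. Among all tested genes of that kind 43.6% were called higher on day 7 and 35.5% on day 14. Of all tested genes 14.5% were called higher and 3.45% lower on day 7, and 11.9% and 3.21% on day 14. The 8 neutrophil markers summed to between 0.92 and 2.46 FPKM in sham, 3.95 and 18.8 on day 7, and 2.9 and 3.75 on day 14. Of the 2 tested, 1 was called higher on day 7 and 0 on day 14. The highest sum of day 7 was that of sample 4, with S100a8 at 6.82 and S100a9 at 10.1 FPKM. Mpo and Elane were at 0 in all sham samples and at most 0.14 and 0.08 FPKM in any sample. Fibroblast markers, 7 in all, summed to between 410 and 586 FPKM in sham, 948 and 1199 on day 7, and 328 and 954 on day 14, with 3 and 1 called higher. Of the 8 endothelial markers 2 were called higher on day 7 and 0 on day 14, with sums from 61.2 to 64.8 FPKM in sham and from 68.7 to 90.4 on day 7. Of the 7 satellite glia markers 1 was called higher and 2 lower on day 7, and 0 higher and 2 lower on day 14, and of the 8 Schwann cell markers 1 was called lower, on day 14. Of 4 tested dendritic cell markers 1 was called higher and 1 lower on day 7, and 2 higher on day 14. The part of these cells in the differences of the TNF superfamily genes was not tested.

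**Figure D4:**
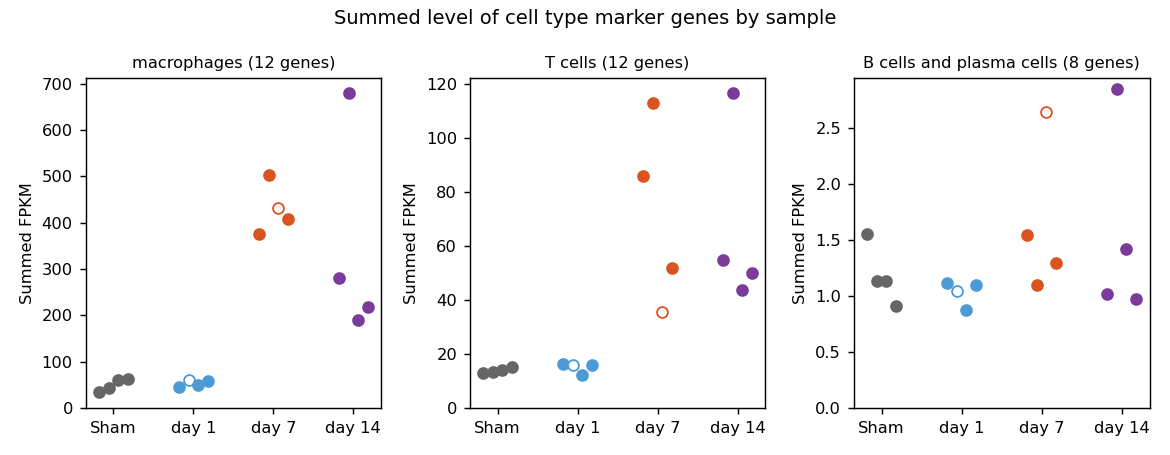
Summed FPKM of markers of macrophages, T cells, and B cells and plasma cells in each sample (points, open for the 2 samples not used in the comparisons). The macrophage sums of days 7 and 14 (from 189 FPKM) lie above all of sham (up to 63.0 FPKM), whereas the B cell and plasma cell sums overlap between groups.

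To give sequence context, the 250 bases before the start of each gene were taken from the RefSeq promoter table (assembly GRCr8), which has an entry for 30 of the 40 genes and for 7 of the 10 called on both late days. Both strands were searched for 3 motifs. The interferon-type element, a pair of GAAA runs with any 2 bases between them, was found in 3 of the 30 genes and in 2 of the 7 called ones (Tnfrsf1b and Tnfsf13b), beside 3.61% of all 27457 genes in the table. The NF-kB consensus was found in 4 of the 30 and 0 of the 7 (3.82% of all genes), and the STAT-type element TTCNNNGAA in 3 of the 30 and 0 of the 7 (8.19% of all genes). The letters of these motifs can overlap each other. In Tnfrsf1b the element runs on the opposite strand from 10 to 1 bases before the start, and in Tnfsf13b on the gene's strand from 20 to 11 bases before it. A match is a run of letters and not a measured binding site. Shown 5′ to 3′ on the gene's strand, with the element in capitals, are those 2 promoters and, without any of the motifs, those of Tnfsf10 and Cd27, which had the widest differences of the called genes with an entry besides Tnfrsf1b. The windows lie at chr5:162387412-162387661 (minus strand, Tnfrsf1b), chr16:86194500-86194749 (minus strand, Tnfsf13b), chr2:112136689-112136938 (plus strand, Tnfsf10) and chr4:159721824-159722073 (minus strand, Cd27).
Tnfrsf1b: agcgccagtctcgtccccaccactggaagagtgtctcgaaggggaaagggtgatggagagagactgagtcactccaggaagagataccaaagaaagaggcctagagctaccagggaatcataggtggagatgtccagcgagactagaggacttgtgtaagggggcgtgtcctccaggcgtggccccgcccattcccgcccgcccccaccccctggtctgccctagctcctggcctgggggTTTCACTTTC
Tnfsf13b: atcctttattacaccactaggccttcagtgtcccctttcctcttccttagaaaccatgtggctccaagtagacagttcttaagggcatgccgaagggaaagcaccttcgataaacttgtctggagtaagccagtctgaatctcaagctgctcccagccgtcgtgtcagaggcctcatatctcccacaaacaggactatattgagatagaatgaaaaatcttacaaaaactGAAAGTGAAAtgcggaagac
Tnfsf10: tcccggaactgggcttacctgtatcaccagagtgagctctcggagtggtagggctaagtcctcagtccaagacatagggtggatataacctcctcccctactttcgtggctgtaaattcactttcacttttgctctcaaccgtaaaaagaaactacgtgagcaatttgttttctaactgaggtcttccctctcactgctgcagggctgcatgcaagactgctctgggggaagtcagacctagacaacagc
Cd27: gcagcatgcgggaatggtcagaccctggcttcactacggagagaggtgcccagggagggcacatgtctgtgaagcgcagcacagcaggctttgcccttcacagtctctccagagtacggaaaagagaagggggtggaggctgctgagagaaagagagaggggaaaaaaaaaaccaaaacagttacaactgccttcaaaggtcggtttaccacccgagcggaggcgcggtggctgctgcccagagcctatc

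Genes of the wider TNF pathway were followed in 69 further genes (adaptors, ubiquitin editing and survival, NF-kB, cell death, ligand processing and 5 superfamily genes with other symbols), of which 66 were tested. On day 7, 21 were called higher and 2 lower, and on day 14, 21 were called higher and 0 lower, beside 14.5% and 11.9% of all tested genes called higher. Of the 66, 59 passed the limit of 1 FPKM in sham alone, and 16 of these were called higher on each late day, beside 12.3% of all such genes on day 7 and 10.2% on day 14. The 7 others gave 5 calls on each day (Bcl2a1, Birc3, Map3k8, Ripk3 and Traf1), beside 43.6% and 35.5%. The counts of higher genes moved to 13 on day 7 without sample 2 of that day, to 11 on day 14 without sham sample 1 or sham sample 2, and to 7 on day 14 when only sham and day 14 entered the fit. On day 1 none was called. Over the tested genes the median log2 fold change was 0.21 on day 7 and 0.15 on day 14.

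In the survival list 6 of 14 genes were called higher on day 7 and 7 on day 14, beside 14.5% and 11.9% of all tested genes. Of the 12 that passed the limit in sham alone, 4 and 5 were called higher, beside 12.3% and 10.2% of all such genes. Bcl2a1, an NF-kB target that protects blood cells from death, was at 0.57, 0.34, 1.22 and 0.66 FPKM in sham, 12.5, 12.4 and 6.66 on day 7, and 3.85, 17.9, 3.58 and 5.17 on day 14. Its late samples were all above sham, with log2 fold changes of 2.74 ± 0.40 (adjusted p = 0.000617) and 2.10 ± 0.37 (adjusted p = 0.00313). Birc3, an inhibitor of apoptosis that is recruited to TNF receptors, had log2 fold changes of 1.00 ± 0.32 on day 7 (adjusted p = 0.0455) and 0.98 ± 0.30 on day 14 (adjusted p = 0.0404). These calls were lost in 12 and 14 of 22 alternatives, without any 1 of the 4 sham samples among them, with adjusted p up to 0.138 and 0.121. Tnfaip3, which encodes the ubiquitin editing enzyme A20 and restrains NF-kB, was at 1.74 ± 0.115 FPKM in sham, 3.15 ± 0.445 on day 7 and 3.59 ± 2.13 on day 14 and did not pass (adjusted p = 0.0883 and 0.0535). Without sample 2 of day 14 it was called on both days (adjusted p = 0.000292 and 0.0164).

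Of the 11 tested cell death effectors, 6 were called higher on day 7 and 5 on day 14, beside 14.5% and 11.9% of all tested genes. Of the 10 that passed the limit in sham alone, 5 and 4 were called higher, beside 12.3% and 10.2% of all such genes. Ripk3, the kinase that starts necroptosis, was at 0.41, 0.57, 0.82 and 0.61 FPKM in sham, 3.29, 4.58 and 3.32 on day 7, and 2.04, 3.23, 1.14 and 1.60 on day 14. The late samples did not overlap with sham, and the log2 fold change was 1.56 ± 0.19 on day 7 (adjusted p = 0.000195) and 0.87 ± 0.17 on day 14 (adjusted p = 0.00581). Mlkl, the membrane effector of the same pathway, rose from 1.58 ± 0.0678 FPKM in sham to 3.93 ± 0.0819 on day 7 (adjusted p = 0.00292) and 3.24 ± 1.30 on day 14 (adjusted p = 0.0157, lost at 0.0636 when only sham and day 14 entered the fit). Casp8, the caspase that FAS and TRAIL receptors activate, rose from 0.995 ± 0.137 to 2.65 ± 0.610 FPKM (adjusted p = 0.00211) and 2.05 ± 0.681 FPKM (adjusted p = 0.0154).

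Among the NF-kB genes 5 of 20 were called higher on each late day, beside 14.5% and 11.9% of all tested genes. Of the 18 that passed the limit in sham alone, 4 were called higher on each day, beside 12.3% and 10.2% of all such genes. Ikbke, an IKK-related kinase, rose from 1.32 ± 0.128 FPKM in sham to 3.51 ± 0.806 on day 7 (adjusted p = 0.000612). Nfkbia, the inhibitor that NF-kB itself induces, rose from 9.12 ± 1.67 to 18.7 ± 3.59 FPKM on that day (adjusted p = 0.00657). In the adaptor list 3 of 13 were called higher on each day (Traf1, Ripk1 and Daxx), and 2 of the 11 that passed the limit in sham alone. The same shares of all genes stand beside these counts. The call of Daxx on day 7 was lost in 15 of 23 alternatives (adjusted p up to 0.139) and that on day 14 in 2 of 23 (up to 0.0673), that of Ripk1 on day 14 in 18 of 22 (up to 0.142), and those of Traf1 in 3 of 22 on day 7 (up to 0.0831) and 7 of 22 on day 14 (up to 0.0842). Traf3, a brake on the noncanonical NF-kB pathway, fell from 13.0 ± 0.340 FPKM in sham to 10.1 ± 1.22 FPKM on day 7 (log2 fold change -0.34 ± 0.070, adjusted p = 0.00494). Of the 5 ligand processing genes only the protease gene Furin was called on either late day. Adam17, the sheddase of TNF, was at 12.1 ± 1.01 FPKM in sham and 12.2 ± 2.04 FPKM on day 7 (adjusted p = 0.990).

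**Figure D5:**
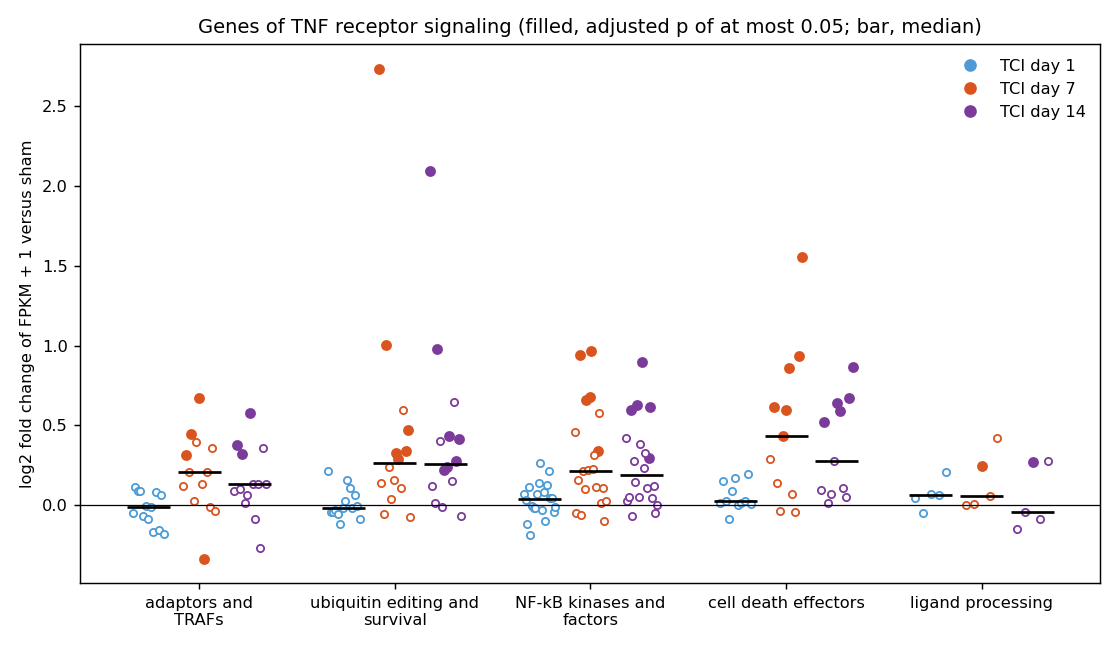
Log2 fold change of FPKM + 1 versus sham for genes of TNF receptor signaling in 5 lists on days 1, 7 and 14 (points, filled for an adjusted p of at most 0.05, bars at the median of the tested genes). The medians of day 7 lie between 0.06 for ligand processing and 0.43 for cell death effectors, and no point is filled on day 1.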

How the data were processed

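RNA of dorsal root ganglia was sequenced in 4 groups of 4 rats by the methods of the study (BGISEQ-500, whereas the labels name Illumina protocols). By its methods, low-quality reads were discarded and the rest mapped by the authors with HISAT and Bowtie2, genes were quantified with RSEM, and the deposited values are FPKM, 1 table per sample with 21021 genes. The submitters' processing notes also list CASAVA 1.4. Genome build and annotation are not given in the sources used here. FPKM are not read counts, so no count model, counting error or interval of depth was computed.

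From these values log2(FPKM + 1) was taken, 14023 genes reaching 1 FPKM in 3 or more of 14 samples were kept, all 4 groups entered 1 fit of limma 3.58.1 in R 4.3.3 (eBayes with trend), and p-values were adjusted by Benjamini-Hochberg over all genes kept. Changes are on that scale, which understates those of low genes. Gene symbols were matched to RefSeq (40 of 40). The procedure was tested on simulated data. Members, gene lists and tests were chosen with earlier results of these data known. All members with a group mean of at least 1 FPKM are named, and of the pathway lists the called genes with the largest changes and uncalled examples. Alternatives were all 16 samples, limma without trend, quantile normalization, no limit or a mean of 5 FPKM, a pseudocount of 0.1, a replicate block, only the groups compared, the cut-offs of the study, and each sample left out. Joining all 16 samples with no limit was added after seeing the data. Figures were drawn with matplotlib 3.10.9.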

Additional observations from a re-analysis of the deposited data

Results flagged for a closer look

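Among the 20 named genes, 80 groups of 4 samples (all 16 samples) were tested for a single sample far from the other 3, and 10 samples were so (12.5%). Independent, normally distributed values would give about 5%. The values here are FPKM of genes that can move together within a sample, so the excess over 5% is not a test. Sample 2 of TCI day 14 was the high sample in 5 of the 10, with 14.5 FPKM of Tnfrsf14 (others at most 4.28), 5.95 of Tnfrsf1b (at most 2.47), 4.55 of Cd27 (at most 1.65), 4.50 of Cd40 (at most 1.70) and 2.86 of Tnf (at most 0.54). In sham, sample 2 was low in Tnfrsf21 at 74.1 FPKM (others from 81.3) and in Tnfrsf14 at 0.05 FPKM (others from 0.25), and sample 1 was low in Tnfrsf11a at 1.56 FPKM (others from 1.80). On day 1, sample 1 was low in Tnfrsf25 at 2.84 FPKM (others from 3.54), and on day 7, the left-out sample 3 was high in Tnfrsf1a at 37.1 FPKM (others at most 29.8).

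The left-out sample 3 of day 7 was above all other samples in 7 of the 40 genes, of which 4 stood at 1 FPKM or more and at 2 or more times the highest sham value. Among these, Tnfrsf26, Tnfrsf22 and Tnfrsf13b are named after their values were seen. Tnfsf10 stood at 12.4 FPKM (others at most 7.91), Tnfrsf26 at 2.09 (at most 1.14), Tnfrsf22 at 1.91 (at most 0.44) and Tnfrsf13b at 1.46 (at most 0.36). Tnfrsf22 and Tnfrsf26 are neighbouring genes of 1 family, so that reads may have been split between them.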

How the results depend on the processing

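Over the single genes and alternatives, 1704 values kept their side of the threshold, 32 lost their call, 10 gained one and 0 calls reversed. Of the 32 losses, 18 came from the stricter cut-offs of the study applied to the main fit, and not from another processing. Many of the 1704 were uncalled in both fits, as no member was called on day 1 or between days 14 and 7. Uncalled values could change direction. Of the 19 members, 17 had a positive fold change on day 7 in the main fit and 15 after quantile normalization. With a mean of at least 5 FPKM required, 2 members were called higher on day 7 and 1 on day 14, as only 5 were tested, and 9 and 10 pathway genes. With the cut-offs of the study the counts were 3 and 1 members and 2 and 0 pathway genes higher, with 0 pathway genes lower on day 7. With only the 2 groups compared, 6 members and 7 pathway genes were called higher on day 14. After quantile normalization the share of higher among all called genes fell from 80.7% to 38.4% on day 7 and from 78.8% to 43.1% on day 14, and the median of all genes moved from 0.04 to -0.07 on day 7. Then 12 members were higher on day 7 and 10 on day 14, beside 1396 and 1185 of all tested genes. On day 14, 1 member was lower (Tnfrsf25), and 4 and 2 pathway genes were lower on days 7 and 14, beside 2239 and 1562 of all tested genes.

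Leaving out each sample gave 10 to 12 members higher and 0 to 1 lower on day 7, 7 to 13 higher and 0 to 1 lower on day 14, 13 to 29 pathway genes higher on day 7 (13 without sample 2 of that day), and 11 to 29 higher (11 without sham sample 1 or 2) and 0 to 1 lower on day 14. The 1 member lower on day 7 was Tnfrsf21 without sham sample 2, and that on day 14 was Tnfrsf25 without sample 1 of that day. A model with the replicate number as a block called 12 members higher on day 7 and 11 on day 14 (Tnfrsf19 in addition). The numbers do not pair the samples, as same-numbered samples of different groups had correlations of their deviations from -0.095 to 0.269 (median 0.003), against a median of -0.005 for other pairs.

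The share of all genes called was not counted for the fits with a mean of 5 FPKM, only 2 groups, a replicate block or a sample left out. Counts from these fits therefore cannot be set against all genes. Each comparison rests on 3 or 4 samples a group. FPKM carry no counting error, so members near 0 in sham have the least certain ratios.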

Other observations

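Genes of the same superfamily that carry other symbols were measured as well. Ngfr, the p75 neurotrophin receptor with a death domain, was at 274, 271, 299 and 307 FPKM in sham, 235, 231 and 211 FPKM on day 7, and 249, 242, 289 and 240 FPKM on day 14, above Tnfrsf21 in every sample. Its day 7 samples were all below sham (log2 fold change -0.35 ± 0.070, limma, adjusted p = 0.00427) and its day 14 samples overlapped with sham (-0.18 ± 0.065, adjusted p = 0.0856), though it was called lower on day 14 after quantile normalization (adjusted p = 0.00590) and without sample 3 of day 14 (adjusted p = 0.00971). Relt was at 3.66 ± 0.818 FPKM in sham and 3.98 ± 0.843 FPKM on day 7 (adjusted p = 0.772), and Eda, the ligand ectodysplasin, at 3.49 ± 0.320 and 2.85 ± 0.274 FPKM (adjusted p = 0.162, and 0.00860 after quantile normalization). Edar and Eda2r could not be tested.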
